A study of Homo sapiens with 19 samples.

Results

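H3K27ac domains of 10 kb or more were taken from the broad peaks called in 4 human myeloid leukaemia cell lines. A peak was counted as a wide domain when its end minus its start was at least 10000 bp on chromosomes 1 to 22 or X, and 1275 of 130757 peaks on these chromosomes met that width. HL-60, Molm13 and OCI-AML3 are established acute myeloid leukaemia (AML) lines, and K562 is an established line of chronic myelogenous leukaemia. HL-60 and Molm13 were untreated, whereas OCI-AML3 and K562 carried a lentiviral dCas9-KRAB-mCherry vector followed by an empty sgRNA vector with a BFP reporter, and were sorted for mCherry and BFP after 48 h. There was 1 library per line, so a difference between lines has no replicate check, and the line, the vectors and the sort cannot be told apart. The read depth behind each peak list is unknown. All widths and fold enrichments chose or accompany the members, and they are given as a description without a test.

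Acetylation of lysine 27 on histone H3 marks active promoters and enhancers. It usually forms narrow peaks at single regulatory elements. Where many elements lie close together, or where the mark runs from a promoter into the gene body, a broad peak caller joins the signal into 1 long domain. In blood cells such domains are known at genes of cell identity, among them lineage transcription factors, granule proteins and haematopoietic microRNAs.

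MicroRNA genes were among the loci that were wide in the most lines, and their mature products are shown because they name these loci most directly. The sequences are those of RefSeq on GRCh38.p14, in RNA letters from 5′ to 3′, with the seed (bases 2 to 8) in capitals. Of 1558 RefSeq hairpins on chromosomes 1 to 22 and X, 52 lay in a wide domain of at least 1 line, 4 of them in HL-60 (0.257%), 19 in Molm13 (1.22%) and 27 each in OCI-AML3 and K562 (1.73%). For comparison, 0.0551%, 0.801%, 1.15% and 1.94% of coding genes had the 5′ end in a wide domain of HL-60, Molm13, OCI-AML3 and K562. The hairpin share was thus the lower of the 2 in K562. Neighbouring hairpins in 1 domain were counted separately. The first 2 products come from MIR142, the only hairpin inside a wide domain in all 4 lines. The following 3 come from the MIR23A, MIR27A and MIR24-2 hairpins on chromosome 19, which lay in a wide domain in HL-60, Molm13 and OCI-AML3. MIR223 was wide in Molm13, OCI-AML3 and K562, MIR196B, MIR15B and MIR16-2 in Molm13 and OCI-AML3, and MIR144 and MIR10A in K562 alone among the 4 lists.
miR-142-3p: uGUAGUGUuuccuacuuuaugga
miR-142-5p: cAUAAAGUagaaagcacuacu
miR-23a-3p: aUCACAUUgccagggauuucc
miR-27a-3p: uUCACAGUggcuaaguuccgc
miR-24-3p: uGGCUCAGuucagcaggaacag
miR-223-3p: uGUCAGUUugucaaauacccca
miR-196b-5p: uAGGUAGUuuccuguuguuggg
miR-15b-5p: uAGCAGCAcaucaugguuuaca
miR-16-5p: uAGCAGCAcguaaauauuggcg
miR-144-3p: uACAGUAUagaugauguacu
miR-10a-5p: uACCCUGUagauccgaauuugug
The miR-15b-5p and miR-16-5p products share the seed AGCAGCA, and the seeds of the other 9 products differ from it and from one another.

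Protein-coding starts inside wide domains ranged from CpG-dense to CpG-poor, and 4 stretches of 200 bases just before a gene's 5′ end show that range. They were read from hg38 in the direction of the transcript. IRF2BP2 (chr1:234610179-234610378, minus strand) was wide in all 4 lines and holds 36 CpG dinucleotides, which are in capitals. MPO (chr17:58280936-58281135, minus strand), wide in HL-60, Molm13 and OCI-AML3, holds 1, and KLF1 (chr19:12887202-12887401, minus strand), wide in K562, holds 4.
IRF2BP2: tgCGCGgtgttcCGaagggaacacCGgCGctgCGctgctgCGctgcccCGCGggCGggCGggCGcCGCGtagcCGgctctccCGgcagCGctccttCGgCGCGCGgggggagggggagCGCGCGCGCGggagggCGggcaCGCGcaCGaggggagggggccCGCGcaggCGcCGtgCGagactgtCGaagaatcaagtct
MPO: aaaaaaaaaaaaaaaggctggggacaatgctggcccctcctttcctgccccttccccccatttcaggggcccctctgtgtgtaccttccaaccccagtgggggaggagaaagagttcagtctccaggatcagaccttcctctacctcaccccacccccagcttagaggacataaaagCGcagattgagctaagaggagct
KLF1: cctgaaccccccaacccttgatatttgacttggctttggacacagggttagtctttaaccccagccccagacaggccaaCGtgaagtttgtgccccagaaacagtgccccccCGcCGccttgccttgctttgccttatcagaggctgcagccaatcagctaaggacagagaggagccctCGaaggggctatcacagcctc
PRTN3 (chr19:840799-840998, plus strand), wide in Molm13 and OCI-AML3, holds 5 CpG dinucleotides, and here the capitals mark instead the letters of a PU.1 motif (GAGGAAGT) and of a C/EBP motif (TTGCNNAA, here on the opposite strand).
PRTN3: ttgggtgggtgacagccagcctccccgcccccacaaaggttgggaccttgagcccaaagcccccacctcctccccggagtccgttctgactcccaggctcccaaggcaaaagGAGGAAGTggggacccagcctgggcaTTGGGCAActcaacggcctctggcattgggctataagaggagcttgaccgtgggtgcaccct

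The number of wide domains differed widely between the lines. HL-60 had 16 wide domains among 20733 peaks (0.0772%), Molm13 had 281 among 35069 (0.801%), OCI-AML3 had 406 among 37531 (1.08%) and K562 had 572 among 37424 (1.53%). Their summed length reached 8.03 Mb in K562, 6.35 Mb in OCI-AML3, 4.11 Mb in Molm13 and 0.193 Mb in HL-60. This was 10.5%, 9.06%, 7.07% and 0.803% of the length of all peaks in the respective line. Peaks of every size were also narrowest in HL-60, with a median of 893 bp, whereas Molm13 had 1142 bp, OCI-AML3 1283 bp and K562 1290 bp. The 99th percentile of peak width was 5092 bp in HL-60 and 9045, 10383 and 11448 bp in the other three lines in the same order. The low count in HL-60 thus stood beside narrower peaks throughout that list.

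Among the wide domains themselves the median width was similar between lines while the longest domains were not. The median was 11900, 12615, 13293 and 12478 bp for HL-60, Molm13, OCI-AML3 and K562. The widest domain of HL-60 reached 15401 bp, that of Molm13 59338 bp, that of OCI-AML3 85530 bp and that of K562 47975 bp. Domains of 20000 bp or more numbered 0, 34, 66 and 51, and those of 30000 bp or more 0, 6, 13 and 7, in the same order. K562 thus had the most wide domains, and OCI-AML3 the most very long ones.

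**Figure D1:**
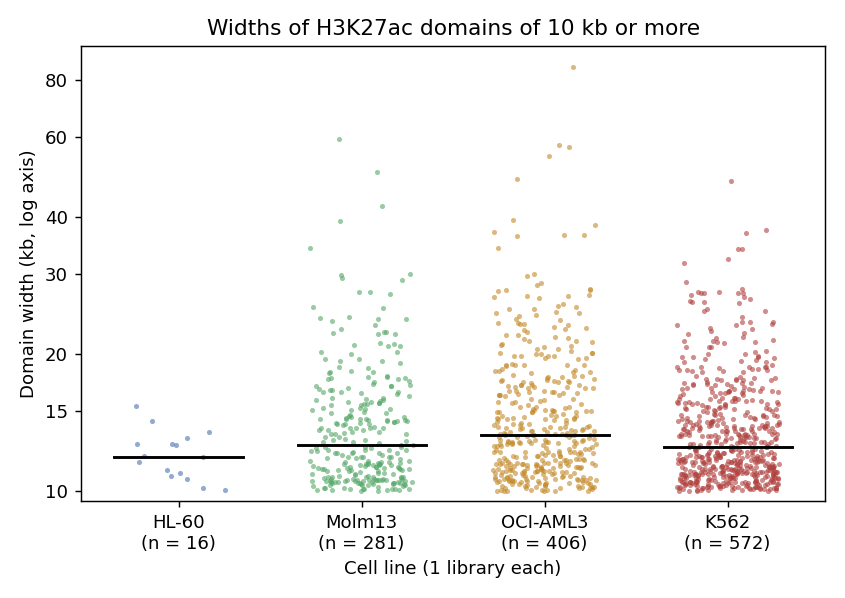
Width of every H3K27ac domain of 10 kb or more (kb, log axis) in each of the 4 lines, 1 point per domain, with a black bar at the median. The medians lie between 11900 bp and 13293 bp in all lines, whereas no HL-60 domain exceeds 15401 bp and OCI-AML3 reaches 85530 bp.

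Wide domains also carried higher fold enrichment, the peak caller's ratio of signal to local background, than narrower peaks. The median was 6.80 in wide domains against 3.60 in narrower peaks of HL-60, 7.39 against 3.79 in Molm13, 4.49 against 2.94 in OCI-AML3 and 4.12 against 2.84 in K562. Across all peaks of a line, width and fold enrichment had a Spearman correlation of 0.467 to 0.627, over peaks of 1 library that share its depth and background. Members near the limit did not stand apart from the peaks just under it. In HL-60 the narrowest members were ZFP36L2 (10077 bp), NEAT1 (10149 bp) and PPP6R1 (10631 bp), and the widest peaks outside were TNRC18 (9863 bp), CEBPE (9825 bp) and a peak near CCL2 (9701 bp). In Molm13 the narrowest members measured 10000 to 10047 bp and the widest outside 9922 to 9970 bp. The same bounds were 10004 to 10010 bp and 9969 to 9997 bp in OCI-AML3, and 10011 to 10023 bp and 9969 to 9989 bp in K562.

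Joining overlapping wide domains of the 4 lines gave 961 loci. Of these, 721 (75.0%) were wide in 1 line, 191 (19.9%) in 2, 43 (4.47%) in 3 and 6 (0.624%) in all 4. A peak of any width was present in all 4 lines at 541 loci (56.3%), so many loci that were wide in few lines still carried the mark elsewhere in narrower form. The largest class was K562 alone with 495 loci, followed by OCI-AML3 alone with 173, Molm13 and OCI-AML3 together with 158, and Molm13 alone with 52. Molm13, OCI-AML3 and K562 shared 37 loci, OCI-AML3 and K562 shared 20, and Molm13 and K562 shared 11. HL-60 had 1 locus of its own, at B3GNT7, a glycosyltransferase gene.

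**Figure D2:**
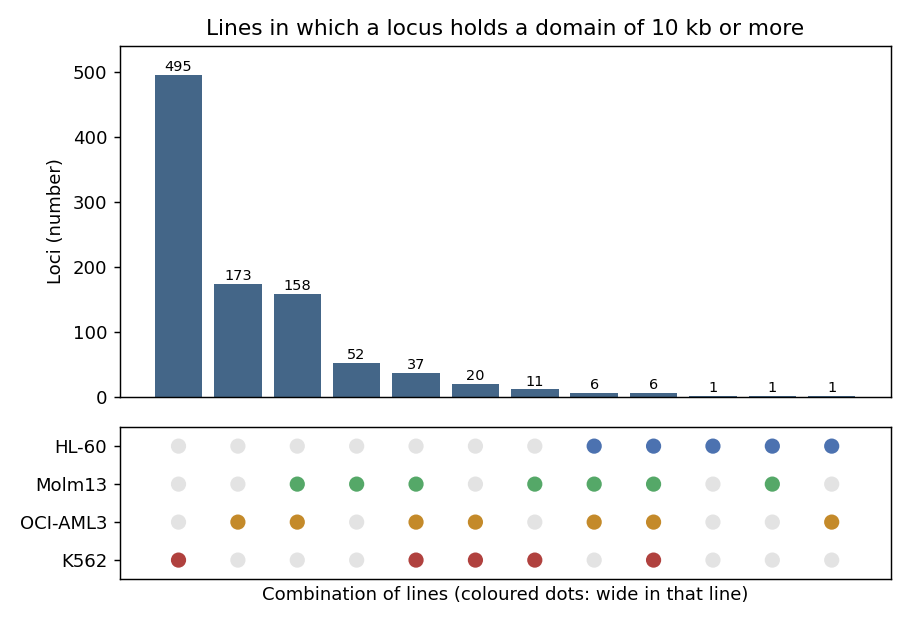
Number of loci (bars) for each combination of lines that held a wide domain there, with coloured dots marking the lines of each combination. Loci wide in K562 alone (495) are the largest class, and 6 loci were wide in all 4 lines.

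Of the 6 loci wide in all 4 lines, 1 held the coding start of IRF2BP2, a transcriptional regulator, and 1 that of TSPOAP1 together with MIR142. The others were the MIR23A host transcript and 3 noncoding stretches. IRF2BP2, which encodes a partner protein of the interferon regulatory factor IRF2, was covered by domains of 15401, 17656, 19768 and 15849 bp in HL-60, Molm13, OCI-AML3 and K562. These 4 domains differed little in extent, starting 4.37 to 6.95 kb upstream of the 5′ end. The TSPOAP1 and MIR142 locus on chromosome 17 was 13498, 27409, 20788 and 14258 bp wide in HL-60, Molm13, OCI-AML3 and K562. miR-142 is an abundant microRNA of blood cells. NEAT1, the long noncoding RNA of paraspeckles, was covered by 10149, 13646, 17109 and 18706 bp in the same order, so that K562 had the widest domain there and HL-60 the narrowest.

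The other three loci differed more in shape between the lines. At MIR23AHG, the host transcript of the MIR23A, MIR27A and MIR24-2 hairpins, HL-60 had a domain of 14230 bp, Molm13 one of 15677 bp, OCI-AML3 one of 10605 bp and K562 one of 11894 bp. The K562 domain covered the 5′ end of the host transcript but no K562 peak covered any of the 3 hairpins. A stretch of chromosome 8 (129525222 to 129577235) within the noncoding gene CCDC26 held widest peaks of 12656, 29818, 25420 and 31668 bp in HL-60, Molm13, OCI-AML3 and K562. At LINC02971 and LNCATV on chromosome 1, OCI-AML3 had 1 domain of 36503 bp where HL-60 had 3 peaks, Molm13 2 and K562 7, the widest being 13057, 19290 and 10148 bp.

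Most wide domains of HL-60 and Molm13 were matched by a wide domain of OCI-AML3. Of the 16 HL-60 domains, 14 (87.5%) were wide in OCI-AML3 and 14 in Molm13. Of the 281 Molm13 domains, 216 (76.9%) overlapped a wide domain of OCI-AML3, 46 overlapped 2 or more narrower peaks, 18 overlapped 1 narrower peak and 1 had no peak there. In the other direction 212 of 406 OCI-AML3 domains (52.2%) were wide in Molm13, 146 were several narrower peaks, 46 a single one and 2 had none. By length, 73.4% of the Molm13 wide sequence lay in OCI-AML3 wide domains and 47.4% of the OCI-AML3 wide sequence in those of Molm13. OCI-AML3 peaks of any width covered 90.7% of the length of Molm13 wide domains against 69.3% of its narrower peaks, and Molm13 peaks covered 76.9% against 56.8% for OCI-AML3.

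K562 wide domains were seldom wide in the AML lines. Of its 572 wide domains, OCI-AML3 also had 65 wide (11.4%), Molm13 57 (9.97%) and HL-60 6 (1.05%). In OCI-AML3, 208 of them were several narrower peaks, 172 a single narrower peak and 127 had no peak. In Molm13 the counts were 193, 187 and 135, and in HL-60 155, 203 and 208. No K562 peak was present at 91 of 281 Molm13 domains (32.4%) and 147 of 406 OCI-AML3 domains (36.2%). These shares were higher than in the reverse direction, where 23.6% and 22.2% of K562 domains had no peak in Molm13 and OCI-AML3. HL-60 went the other way, with none at 4 of 16 domains (25.0%) against 36.4% of K562 domains without an HL-60 peak. K562 peaks covered 33.6% of the length of Molm13 wide domains, which was less than the 39.8% they covered of Molm13 narrower peaks, and 28.8% against 39.3% for OCI-AML3.

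**Figure D3:**
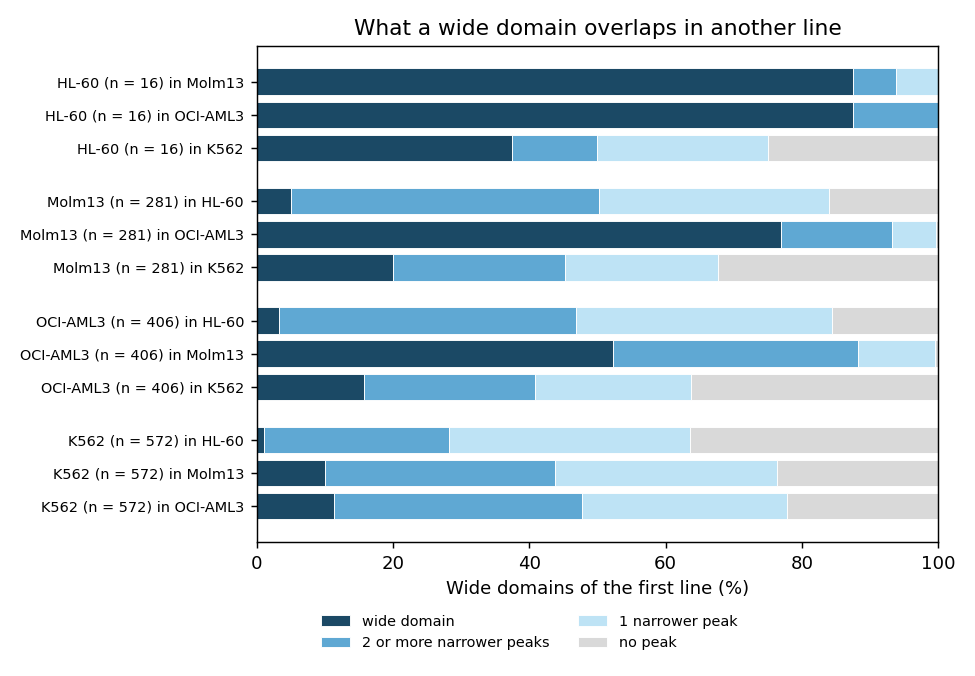
Share of the wide domains of the first-named line (%) that overlapped by at least 1 bp a wide domain, 2 or more narrower peaks, 1 narrower peak or no peak in the second-named line, for all 12 ordered pairs. The dark bars are longest for HL-60 in Molm13 and OCI-AML3 (87.5% each) and for Molm13 in OCI-AML3 (76.9%), and shortest for K562 in HL-60 (1.05%).

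At an overlap of 1 bp, a wide domain with no peak in any other line was rare outside K562. There was none among 16 in HL-60 (95% Wilson interval 0 to 19.4%), 1 of 281 in Molm13 (0.356%, interval 0.0628 to 1.99%), 1 of 406 in OCI-AML3 (0.246%, interval 0.0435 to 1.38%) and 106 of 572 in K562 (18.5%, interval 15.6 to 21.9%). Among the narrower peaks the share without a peak elsewhere was 30.7%, 27.2%, 29.4% and 56.6% for HL-60, Molm13, OCI-AML3 and K562, so it was lower for wide domains in every line. A peak in all 3 other lines was present at 12 of 16 wide domains of HL-60, 174 of 281 of Molm13, 238 of 406 of OCI-AML3 and 343 of 572 of K562, against 43.6%, 24.9%, 23.3% and 22.9% of their narrower peaks. These shares depended on the overlap required. Where peaks of 1 other line had to cover 50% of a domain, the share without such cover was 0, 1.78%, 10.1% and 70.1% for HL-60, Molm13, OCI-AML3 and K562. Width enters this count, since a longer interval has more bases in which to meet a peak. By length, OCI-AML3 peaks covered 32.8% of the K562 wide domains against 35.2% of the K562 narrower peaks. The intervals cover counting error only.

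The share that was wide in at least 1 other line ran the opposite way. It was 15 of 16 in HL-60 (93.8%, interval 71.7 to 98.9%), 229 of 281 in Molm13 (81.5%, 76.5 to 85.6%), 233 of 406 in OCI-AML3 (57.4%, 52.5 to 62.1%) and 77 of 572 in K562 (13.5%, 10.9 to 16.5%). Of the narrower peaks of these lines, 5.58%, 3.25%, 2.30% and 1.23% overlapped a wide domain of another line. The size of the lists moved with this order, since HL-60 had the fewest domains and K562 the most. When the 281 widest peaks of every line were compared instead, a choice made after seeing the data, the shares were 37.4%, 73.0%, 69.8% and 18.1% for HL-60, Molm13, OCI-AML3 and K562. Molm13 and OCI-AML3 then had the highest shares, K562 still had the lowest, and the HL-60 peaks compared reached down to 4609 bp.

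HL-60 gave the clearest view of what a wide domain of other lines becomes. At the 43 loci that were wide in Molm13, OCI-AML3 and K562, HL-60 held a wide domain at 6, 2 or more narrower peaks at 31 and a single narrower peak at 6, and none of the 43 was without a peak. The widest HL-60 peak at these loci had a median of 4173 bp, and this median peak was wider than 98.1% of all HL-60 peaks. The widths ranged from 852 to 15401 bp, and 36 of the 43 fell in the widest 5% of the HL-60 list. These ranks set the widest of often several peaks over a long span against all single HL-60 peaks, which raises them. No matched spans were compared. The 43 loci were chosen by width in the other lines, but HL-60 wide domains took part in joining the loci. At the 12 loci wide in the 3 AML lines, K562 held 6 wide domains, several narrower peaks at 1, a single narrower peak at 3 and no peak at 2.

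Where the mark was broken into pieces, the pieces were few. Molm13 domains met as several narrower peaks in HL-60 had a median of 2 and at most 9 pieces, which covered a median of 39.8% of the domain. OCI-AML3 domains in the same state in Molm13 had a median of 2 and at most 5 pieces, covering 64.6%. K562 domains in HL-60 also had a median of 2 pieces, at most 5, and these covered 25.5%.

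The 207 loci wide in both Molm13 and OCI-AML3 differed in what they were in the remaining lines. In K562, 43 were wide, 59 were several narrower peaks, 46 a single narrower peak and 59 had no peak. In HL-60, 12 were wide, 114 were several narrower peaks, 54 a single one and 27 had no peak. The AML line HL-60 thus held a narrower form of the mark at more of these loci than K562 did, and K562 a wide form at more.

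Coding genes were covered in all lines, although most wide domains of Molm13 and OCI-AML3 held no coding start. The 5′ end of at least 1 protein-coding gene lay in 9 of 16 wide domains of HL-60 (56.3%), 108 of 281 of Molm13 (38.4%), 161 of 406 of OCI-AML3 (39.7%) and 280 of 572 of K562 (49.0%). Among narrower peaks these shares were 22.9%, 19.2%, 19.6% and 18.8%. Only a noncoding gene started in a further 4, 70, 91 and 92 domains, while 3, 78, 123 and 175 lay inside a gene without any start, and 0, 25, 31 and 25 touched no annotated gene. Per Mb of sequence the order reversed, with 56.9, 38.9, 36.2 and 48.2 coding starts in wide domains against 242, 149, 137 and 122 in narrower peaks.

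Of 19970 coding genes, HL-60 had 11 with the 5′ end in a wide domain (0.0551%), Molm13 160 (0.801%), OCI-AML3 230 (1.15%) and K562 387 (1.94%). Of these, 1 was covered in HL-60 alone, 29 in Molm13 alone, 92 in OCI-AML3 alone and 319 in K562 alone. Molm13 and OCI-AML3 shared 76 and these lines with K562 shared 33, while IRF2BP2 and TSPOAP1 were covered in all 4 lines. Domains with a single coding start reached further downstream than upstream in 52 of 76 cases in Molm13, 86 of 118 in OCI-AML3, 159 of 204 in K562 and 5 of 7 in HL-60. These shares (68.4%, 72.9%, 77.9% and 71.4%) were close to those of narrower peaks with a single start, which were 70.4%, 76.7%, 73.6% and 71.8%. The median K562 domain of this kind ran 3102 bp upstream and 9358 bp downstream.

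Genes of 15 lists were then followed across the lines by the width of the peak over their 5′ end, and a gene is called wide here when that peak is. Such a peak can also hold the 5′ ends of genes outside the lists, as the Molm13 domain of NFE2 held that of COPZ1. Over all coding genes whose 5′ end lay in a peak, the median width of that peak was 1529, 2025, 2267 and 3086 bp for HL-60, Molm13, OCI-AML3 and K562. None of 18 genes of non-blood tissues had a peak at the 5′ end in any line, and of 21 lymphoid genes 2 or 3 did in each line, none of them wide. Of 15 megakaryocyte and platelet genes 4 had a peak in K562, 1 in Molm13 and none in HL-60 or OCI-AML3, and none was wide.

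Granule protein genes encode the enzymes and matrix of neutrophil granules. Of 18 listed, 6 were wide in Molm13, 5 in OCI-AML3 and 1 each in HL-60 and K562, and the median width over those with a peak was 2529, 4231, 8159 and 2817 bp for HL-60, Molm13, OCI-AML3 and K562. MPO, the myeloperoxidase gene, was covered by domains of 12709, 14058 and 20070 bp in HL-60, Molm13 and OCI-AML3 and had no peak in K562. The neighbours AZU1, PRTN3 and ELANE on chromosome 19, which encode azurocidin, proteinase 3 and neutrophil elastase, lay together in 1 Molm13 domain of 34162 bp. In OCI-AML3, PRTN3 and ELANE shared a domain of 20486 bp and AZU1 lay in another of 12802 bp. In HL-60 these 3 genes had separate peaks of 5707, 2529 and 1547 bp, and in K562 their 5′ ends lay in no peak, while 2 narrower peaks covered 14.1% of the span of the Molm13 domain.

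SRGN, which encodes the proteoglycan core of granules, had the widest domain of Molm13. It measured 59338 bp there, while OCI-AML3 had 48570 bp and K562 10304 bp, and in HL-60 the 5′ end lay in a peak of 5555 bp. The Molm13 domain began 44.1 kb upstream of the 5′ end and that of K562 2.24 kb upstream. Within the span of the Molm13 domain HL-60 had 7 peaks, which covered 48.5% of it.

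Transcription factors of myeloid and haematopoietic cells gave 5 wide starts of 27 in Molm13, 5 in OCI-AML3, 3 in K562 and none in HL-60. MYB, a factor of progenitor cells, lay in domains of 25262, 39368 and 20680 bp in Molm13, OCI-AML3 and K562 and in a peak of 3660 bp in HL-60. ZEB2 was wide in the same 3 lines, at 22335, 25174 and 11854 bp. In HL-60 it had no peak at its 5′ end, but the widest peak over the gene measured 5174 bp. GFI1, a transcriptional repressor that acts in granulocyte development, measured 18502 bp in OCI-AML3, 14866 bp in Molm13 and 9455 bp in HL-60. It had no peak in K562. CEBPA was wide in Molm13 (12470 bp) and narrower in OCI-AML3 (6933 bp), whereas IRF8 was wide in OCI-AML3 (20744 bp) and narrower in Molm13 (2084 bp), and neither gene had a peak at its 5′ end in HL-60 or K562. Over the CEBPA gene HL-60 did have a peak of 1765 bp. GATA2 was wide in K562 (16199 bp) with no peak at its 5′ end in the AML lines. The widest peaks over the GATA2 gene measured 591, 4547 and 2250 bp in HL-60, Molm13 and OCI-AML3.

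ETV6, another haematopoietic transcription factor, held the widest domain of all. In OCI-AML3 it ran over 85530 bp of chromosome 12 (11733876 to 11819405), inside the gene and 84202 bp from its 5′ end. Molm13 had 9 peaks in that span, the widest 23880 bp, which covered 75.3% of it. HL-60 had 6 peaks covering 16.2%, and K562 had 2 covering 3.66%. The 5′ end of ETV6 itself lay in a second domain of 11497 bp in OCI-AML3 and 10500 bp in Molm13.

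Homeobox and stem cell genes of leukaemia were the list with the largest median width in Molm13 and OCI-AML3, though not in HL-60 or K562. Of 25 listed, 4 were wide in Molm13, 9 in OCI-AML3, 1 in K562 and none in HL-60, and the median width over those with a peak was 21090 bp in Molm13 and 57053 bp in OCI-AML3. These medians rest on 6 and 11 genes, several of which share a domain. In K562 it was 8155 bp over 6 genes, and in HL-60 a single listed gene had a peak, of 2417 bp. A single OCI-AML3 domain of 57053 bp (chromosome 7, 27151130 to 27208182) held the 5′ ends of HOXA3, HOXA7, HOXA9, HOXA10, HOXA11 and HOXA13 and of MIR196B. In Molm13 a domain of 25378 bp held those of HOXA3, HOXA6, HOXA7 and MIR196B, and it began 0.305 kb downstream of the annotated 5′ end of HOXA9. HL-60 had 3 peaks in the OCI-AML3 span, covering 4.06% of it, and K562 had none.

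The cofactors of HOX proteins followed a similar division. PBX3 was wide in Molm13 (16802 bp) and OCI-AML3 (24341 bp) and had no peak at its 5′ end in HL-60 or K562. MEIS1 lay with its 5′ end in an OCI-AML3 domain of 19762 bp. Molm13 had a domain of 14533 bp within that stretch, which began 1612 bp inside the gene and so missed the 5′ end. HL-60 had no peak over MEIS1, and the widest K562 peak over the gene measured 5308 bp. HOXB4 was the 1 listed homeobox gene that was wide in K562, at 12835 bp, in a domain that also held MIR10A. BMI1, a Polycomb gene outside the lists, lay with COMMD3 in domains of 39136 bp in Molm13 and 38405 bp in OCI-AML3 that covered nearly the same sequence, and in K562 the widest of 3 peaks there measured 13864 bp.

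**Figure D4:**
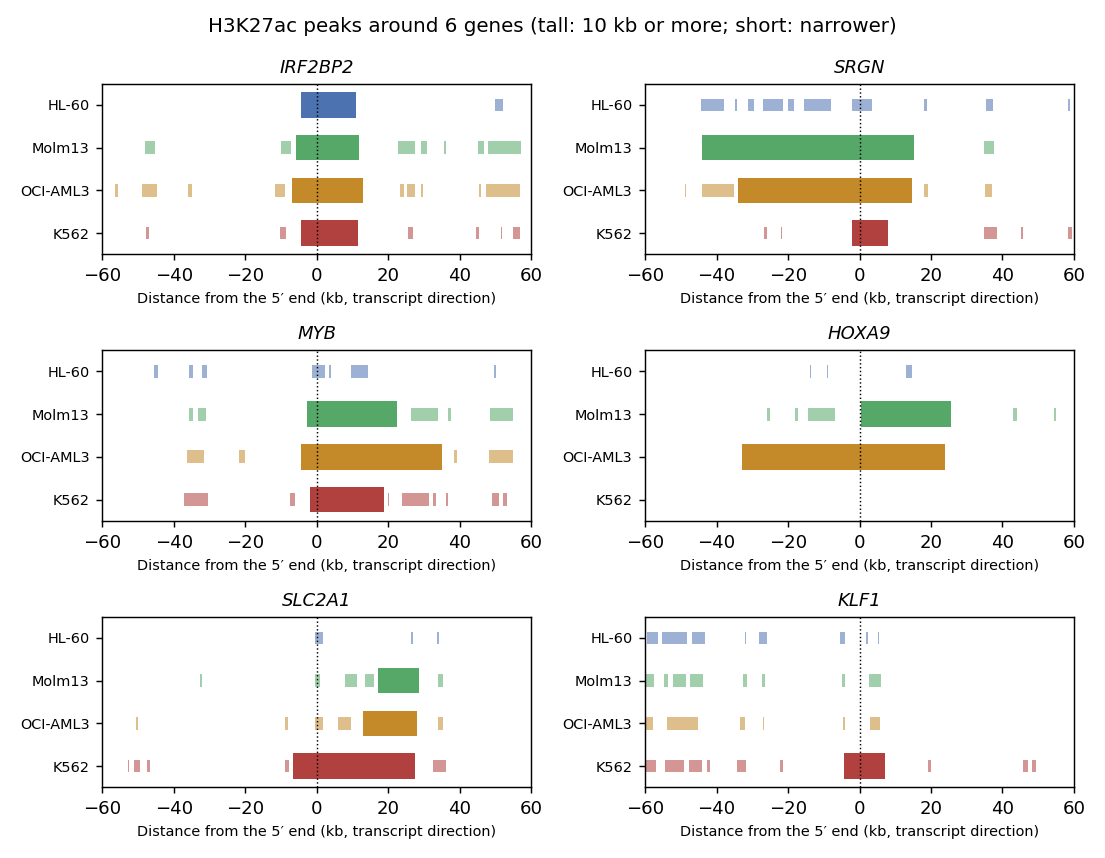
H3K27ac peaks of the 4 lines within 60 kb of the 5′ end of 6 genes (kb, positive in the direction of the transcript), as tall bars for domains of 10 kb or more and short pale bars for narrower peaks. IRF2BP2 is alike in all lines, SRGN and MYB are widest in Molm13 or OCI-AML3 and broken in HL-60, the HOXA9 region is empty in K562, and the wide domains at the 5′ ends of SLC2A1 and KLF1 are those of K562.

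Erythroid genes are a group of interest in K562, a line known for its capacity to make haemoglobin. Of 28 listed, 20 had a peak at the 5′ end in K562 and 7 were wide (25.0%), against 3, 6 and 6 with a peak and 0, 1 and 0 wide in HL-60, Molm13 and OCI-AML3. KLF1, an erythroid transcription factor, measured 11579 bp in K562 and had no peak at its 5′ end elsewhere. The same held for HBG1, a fetal globin gene, at 21706 bp and RHAG, a red cell membrane gene, at 12180 bp. The widest peaks over the KLF1 gene measured 643 bp in HL-60 and 3461 bp in Molm13. HBG1 has a near-identical neighbour, HBG2, so unique mapping of reads there is uncertain. TFRC, the transferrin receptor, measured 13339 bp in K562 against 2390 to 2734 bp in the other lines. NFE2 lay in a K562 domain of 33929 bp and a Molm13 domain of 13488 bp, in a peak of 8625 bp in OCI-AML3 and in none in HL-60. GATA1, the main erythroid factor, fell short of the limit with 8806 bp over its 5′ end in K562 and had no peak elsewhere.

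Genes of cytokine feedback and survival gave 3 wide starts of 16 in K562, 2 in OCI-AML3 and 1 in Molm13, with none in HL-60. PIM1, a survival kinase, measured 26962 bp in K562, 9863 bp in Molm13 and 9479 bp in OCI-AML3. The locus was nevertheless wide in Molm13 too, with a separate domain of 14807 bp that lay 10122 bp from the 5′ end. The K562 domain covered all of it. CISH, a feedback inhibitor of cytokine signalling, measured 16738 bp in K562 and 15859 bp in Molm13 but 5531 bp in OCI-AML3. OCI-AML3 had 2 peaks in the span of the Molm13 domain, the widest 8024 bp, which covered 85.5% of it. BCL2, which blocks apoptosis, was wide in OCI-AML3 (10023 bp) and had no peak at its 5′ end in K562, where the widest peak over the gene measured 2029 bp. The 5′ end of its relative BCL2L1 lay in a K562 domain of 13993 bp and in peaks of at most 1950 bp in the AML lines. The widest K562 domain, 47975 bp on chromosome 20 (31660914 to 31708888), lay 15101 bp from the 5′ end of BCL2L1 and was met by 2 to 4 narrower peaks in each AML line, which covered at most 10.7% of it.

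In the remaining lists of coding genes at most 4 members were wide in any line. FLT3, the receptor kinase often mutated in AML, was wide in Molm13 (11765 bp) and OCI-AML3 (12765 bp), and its 5′ end lay in a peak of 920 bp in HL-60 and in none in K562. CDK6 was wide in the same 2 lines (11070 and 11136 bp). CDKN2C, which encodes a CDK inhibitor, lay in a Molm13 domain of 23904 bp, whereas the peak over its 5′ end measured 3856 and 6885 bp in OCI-AML3 and K562. The locus was nevertheless wide in these lines too, with domains of 20139 and 15497 bp that began over 5 kb downstream of the 5′ end. Of 22 monocyte genes, FCGR2A (15584 bp) and CD68 (17145 bp) were wide in K562, and in the AML lines they measured 1442, 1761 and 1746 bp for FCGR2A in HL-60, Molm13 and OCI-AML3 and 2313 and 2857 bp for CD68 in Molm13 and OCI-AML3. Of 23 immediate early genes, JUNB was wide in Molm13, OCI-AML3 and K562 (13037, 12098 and 12060 bp), and ZFP36L2 in HL-60, Molm13 and OCI-AML3 (10077, 20214 and 11745 bp). The K562 peak over the 5′ end of ZFP36L2 measured 9912 bp, just under the limit, and the HL-60 peak over that of JUNB 5933 bp. Of 15 housekeeping genes 4 were wide in K562 (26.7%) and 1 in OCI-AML3, so the K562 share of this control list was close to the 25.0% of the erythroid list. Of 21 chromatin regulators BRD2 (11340 bp) and CHD2 (11594 bp) were wide in K562.

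**Figure D5:**
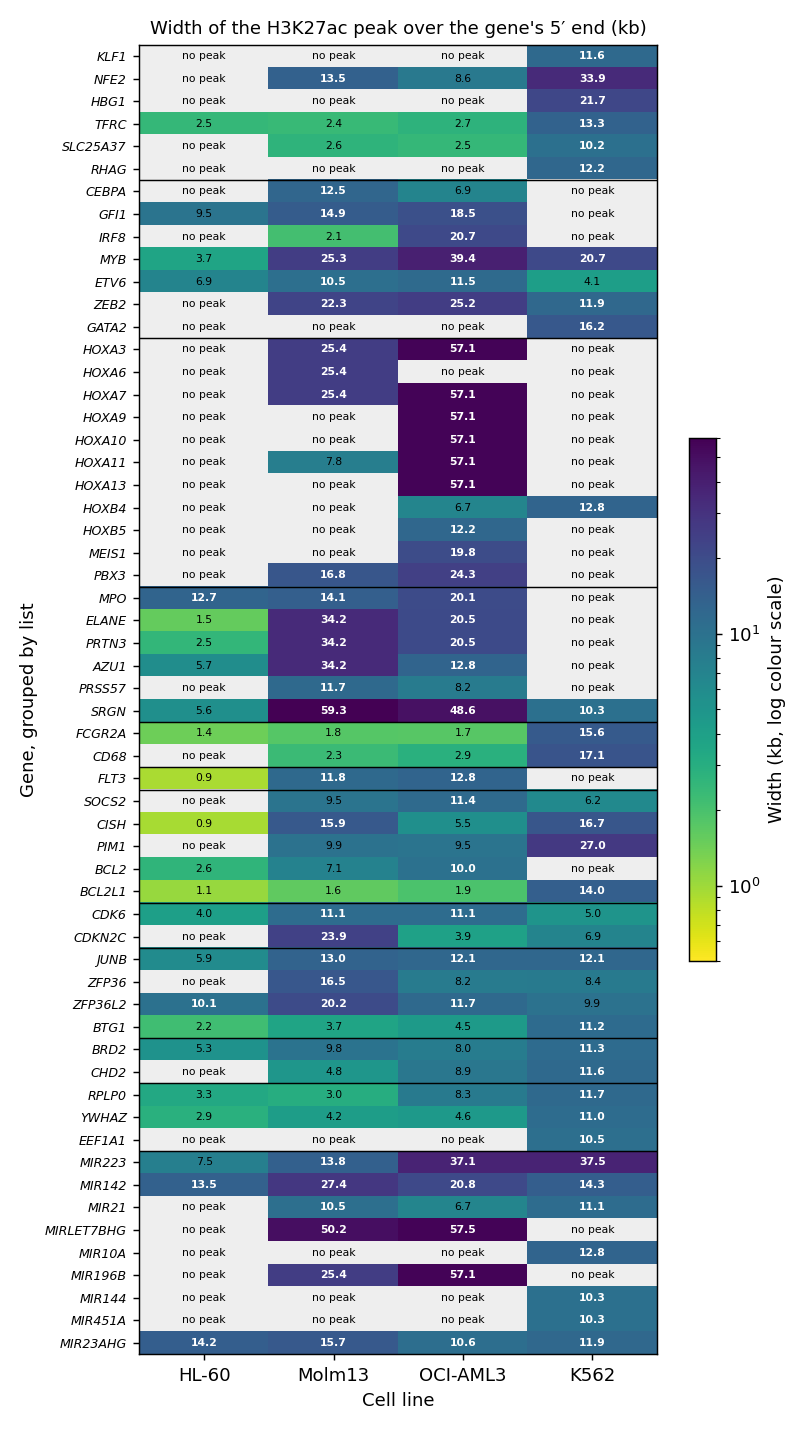
Width of the peak over the 5′ end (kb, log colour scale) of 58 of the 60 listed genes that were wide in at least 1 line, grouped by list, with bold white values for 10 kb or more and grey cells for no peak. The erythroid genes at the top, like the 3 housekeeping genes above the microRNA genes, are wide in the K562 column, homeobox and granule genes in the Molm13 and OCI-AML3 columns, and MIR142 and MIR23AHG near the bottom in all 4 columns.

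The microRNA loci whose products are printed above also differed in width between the lines, without a single division. Of 17 listed microRNA genes 7 were wide in K562, 6 in Molm13, 5 in OCI-AML3 and 2 in HL-60. MIR223 lay in a peak of 7535 bp in HL-60 and in domains of 13781, 37105 and 37507 bp in Molm13, OCI-AML3 and K562, and the long domains of the last 2 lines were nearly congruent, since the OCI-AML3 domain covered 98.9% of that of K562. MIRLET7BHG, the let-7b host transcript on chromosome 22, was wide in Molm13 (50186 bp) and OCI-AML3 (57502 bp). It had no peak at its 5′ end in HL-60 or K562, where the widest peaks over the gene measured 5032 and 2282 bp. MIR144, with MIR451A in the same 10292 bp domain, was wide in K562, where miR-144 and miR-451 are known as red cell microRNAs, and no AML line had a peak there. MIR15B and MIR16-2, which lie within the SMC4 gene, were covered by 13959 bp in OCI-AML3 and 10634 bp in Molm13, and by 9973 bp in K562, just under the limit.

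Several of the widest domains of 1 line had no wide counterpart. The widest of these in Molm13 held ZFP36 and PLEKHG2 (16506 bp), followed by TTYH3 (15124 bp), an intragenic stretch of ZNF521 (15112 bp), one of ZMIZ1 (14369 bp) and CGAS with MTO1 (14189 bp). OCI-AML3 peaks covered 57.6% to 93.7% of each, so the mark was there in pieces. The widest in OCI-AML3 lay in COL23A1 (30007 bp), LYST (28344 bp), DHRS9 (27586 bp) and PBX3 (26899 bp) and over MKX (26682 bp). The MKX domain was the only OCI-AML3 member without a peak in another line, and a 10556 bp stretch of DYNC1I1 was the only such member of Molm13.

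K562 held longer domains with no peak elsewhere. The widest measured 36938 bp and lay in CPED1 on chromosome 7 (121014748 to 121051685), and a second of 27358 bp lay in the same gene. They belonged to a string of 4 wide domains with a summed width of 92884 bp between 120987330 and 121143783. Others lay on chromosome 19 with no coding start within 665591 bp (28724 bp wide), in NET1 (27246 bp) and in ADGRV1 (26110 bp). Of the 106 K562 domains of this kind, 58 (54.7%) lay inside a gene without a start and 17 (16.0%) held a coding start, whereas 30.6% and 49.0% of all K562 wide domains did so. Their median width of 12126 bp was near the 12646 bp of the other K562 domains, and so was their median fold enrichment of 3.99 against 4.15. SLC2A1, the glucose transporter gene, lay in a K562 domain of 34083 bp that reached from 6.58 kb upstream of its 5′ end to 27.5 kb downstream, and Molm13 and OCI-AML3 had domains of 11467 and 15101 bp over its downstream part only.

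Some wide domains lay near one another. Those with another wide domain within 50 kb numbered 4 of 16 in HL-60 (25.0%), 77 of 281 in Molm13 (27.4%), 101 of 406 in OCI-AML3 (24.9%) and 175 of 572 in K562 (30.6%). The same share is not given here for narrower peaks, so these counts cannot be called high or low. The longest strings held 4 domains in Molm13, at MBNL1 and at JMJD1C with REEP3, and OCI-AML3 had strings of 5 and 4 at the same genes, with summed widths of 72140 and 57434 bp. In the histone gene region of chromosome 6 from 26 to 28 Mb Molm13 had 4 wide domains, OCI-AML3 5 and K562 10, holding 18, 22 and 25 histone gene starts, and HL-60 had none. Histone genes of this region are near copies of one another, so unique mapping of reads is uncertain there too. Chromosome 6 held 65 K562 wide domains (11.4% of the line's wide domains and 6.70% of its peaks).

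In base composition wide domains differed from narrower peaks mainly in CpG content. The observed to expected ratio of CpG was 0.389, 0.355, 0.350 and 0.349 in HL-60, Molm13, OCI-AML3 and K562 within wide domains, against 0.550, 0.456, 0.456 and 0.442 within narrower peaks and 0.240 in the genome. The G+C content was 52.1%, 45.6%, 44.2% and 44.1% in wide domains against 51.8%, 48.7%, 47.7% and 46.7% in narrower peaks, so HL-60 did not share the lower value. Coding starts showed the same division. Windows from 250 bp before to 50 bp after the 5′ end with 15 or more CpG dinucleotides made up 59.4%, 60.9% and 64.9% of the wide starts of Molm13, OCI-AML3 and K562, but 81.3%, 81.2% and 80.2% of the starts in narrower peaks. Of all 19970 such windows 57.1% were CpG-rich by this count.

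Letters of 4 motifs were searched in the same windows on both strands. The C/EBP motif TTGCNNAA was present in 26 of 160 wide starts in Molm13 (16.3%), 33 of 230 in OCI-AML3 (14.3%) and 32 of 387 in K562 (8.27%), against 9.15% of all windows. The PU.1 motif GAGGAAGT was present in 6.25%, 5.22% and 3.88% against 2.40%. The RUNX motif TGTGGTT was found in 4.38%, 2.61% and 5.68% against 3.94%, and the GATA motif AGATAAG in 0, 0.870% and 1.29% against 2.25%. For starts in narrower peaks of Molm13, OCI-AML3 and K562 the C/EBP shares were 7.82%, 7.60% and 7.57%. Those of PU.1 were 2.83%, 2.71% and 2.34%, and those of RUNX 3.26%, 3.35% and 3.01%. Those of GATA were 1.11%, 1.09% and 1.43%, so GATA letters were below the share of all windows in narrower peaks too. In HL-60, of 11 wide starts 2 held the C/EBP letters and none those of the other motifs. The counts are small, starts that share a domain are not independent, and a match describes letters rather than a bound site.

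Of the 392 dCas9 peaks called in K562 cells with the LTR2B guides, 4 lay in wide domains of control K562 cells, 2 in those of Molm13, 2 in those of OCI-AML3 and none in those of HL-60. They fell in 4 of 572, 2 of 281, 2 of 406 and 0 of 16 wide domains. The share of dCas9 peaks in narrower H3K27ac peaks is not given here, so these counts cannot be called few or many. The K562 domains with such a peak were 10702 to 13451 bp wide, and 1 of them, of 12681 bp, held the 5′ end of SLC3A2, an amino acid transporter subunit.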

How the data were processed

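H3K27ac ChIP-seq was carried out on cross-linked chromatin sheared to 200–700 bp, each immunoprecipitation using 2.5 µg antibody and 15 µg chromatin, in 1 library per line. Per the labels and the study's methods, reads were trimmed with Trim Galore (0.4.5 per the labels) and aligned to hg38 with Bowtie2 (2.3.4 per the labels, whereas the study's methods name another version), uniquely mapped reads were kept, and broad peaks were called with MACS2 2.1.1 at a q-value of 0.05. The largest q-value in the lists was 0.0995. The control library of the peak calls and the read counts are not given in the sources used here, so precision is that of the peak calls alone. The deposited lists hold, per peak, start and end, a whole-number score, the fold enrichment (a ratio to local background), and the −log10 p-value and −log10 q-value. The score and p-value columns were not used in any result. The authors' dCas9 peaks (narrow mode, the same units) were used for overlap only.

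Widths were end minus start. Peaks overlapped when they shared at least 1 bp. Overlapping wide domains of the 4 lines were joined into loci. Genes were those of GENCODE 44 on hg38, each with a single 5′ end, so other promoters of a gene were not followed. Domains were named by the coding 5′ ends they held, otherwise by the gene around them or the nearest coding 5′ end. Python 3.11.15, pandas 2.3.3 and NumPy 2.4.6 were used. The overlap procedure was tested on simulated data, and its counts for 12 pairs of lists equalled those of bedtools 2.31.1. Sequences in the RefSeq tables (GRCh38.p14) equalled the hg38 genome at their coordinates for 1558 of 1558 hairpins. All matches of widths to lists are descriptions, and no test was run, since width chose the members and no line has a replicate. Intervals are 95% Wilson intervals.

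Named loci were, by rule, the 10 widest domains of a line, the loci wide in all 4 lines, the 5 widest of a line that were wide in no other line or had no peak elsewhere, the 3 domains on either side of the limit, and listed genes with a wide 5′ end. Values of 2 such listed genes are not reported here, although the counts over their lists include them. Other named genes (B3GNT7, BMI1 and the strings of domains among them) were chosen after their values were seen. The members and the gene lists were chosen with earlier results of these data known. Alternatives were other minimum widths (8000 and 15000 bp), a q-value below 0.001, joining of peaks under 1000 bp apart, lists of equal length, an overlap of 50% and an equal number of widest peaks.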

Additional observations from a re-analysis of the deposited data

How the results depend on the processing

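No paired analysis was possible because each line had 1 library and no result came from a test. The counts depended mainly on the minimum width. At 8000 bp HL-60 had 35 wide domains, Molm13 492, OCI-AML3 678 and K562 1053, 10 loci were wide in all 4 lines, and 15.5% of the K562 domains had no peak elsewhere. At 15000 bp the counts were 1, 89, 147 and 161. The order of the lines was the same at both widths. The share of K562 domains with no peak in another line was 25.1% when q-values below 0.001 were required in every list, since fewer narrow peaks of the other lines were left to meet. Where peaks of 1 other line had to cover 50% of a domain, the share without such cover was 70.1% in K562 and 10.1% in OCI-AML3. With the 281 widest peaks of every line the share wide in another line was 37.4%, 73.0%, 69.8% and 18.1% for HL-60, Molm13, OCI-AML3 and K562, and 8 loci were shared by all 4 lines. Joining peaks under 1000 bp apart (18, 281, 425 and 637 wide domains) and lists of equal length (16, 281, 402 and 571) left every count within 1.5 times its value and every share within its interval. A single library per line, unknown depth and an unnamed control limit every comparison between lines.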
